A study of Homo sapiens with 12 samples.

Results

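The baseline transcriptome of hTERT-RPE1 cells was described from the 3 libraries of a control siRNA group (siNeg), out of 12 libraries in the series. Genes were ranked by their mean FPKM over these 3 libraries in a table of 60279 genes. FPKM is a read count scaled to sequencing depth and to transcript length. The line is a human retinal pigment epithelial line immortalised with hTERT, the catalytic subunit of telomerase. All groups used the parental line in DMEM/F12, given 20 nM siRNA overnight and collected at 48 h, per the labels. The siNeg group carries the genotype label WT, so a siNeg library stands for transfected wild-type cells and no untransfected group is included here. The other groups were siCENPF, siFOXM1 and siCENPF+siFOXM1, labelled as knockdowns of CENP-F, of FOXM1 and of both, with 3 libraries each. PolyA RNA was sequenced in every library, and nothing in the labels says that the replicates were separate cultures.

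A cell's most abundant mRNAs usually encode the machinery every cell needs, such as ribosomes, the actin and tubulin cytoskeleton, glycolysis and the respiratory chain. The genes that mark a lineage are fewer and sit beside them. Retinal pigment epithelium in the eye is a pigmented, polarised layer that recycles visual pigment for the photoreceptors, and cultured lines derived from it often lose pigment and take on a spread, matrix-producing form. RPE1 cells are widely used to study mitosis and the primary cilium because they keep a near-normal karyotype and divide regularly.

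Reads counted in genes numbered 16079871, 13681255 and 35411230 in siNeg libraries 1, 2 and 3. The reads were recovered from the deposited CPM, in which every value under 60 reads came out whole in all 12 libraries. The other 9 libraries had between 13671250 and 31302177 such reads. CENPF, the target of siCENPF, read 28.5, 36.7 and 30.03 FPKM in the siNeg libraries and 3.09 to 5.15 FPKM in the 6 libraries given siCENPF. FOXM1, the target of siFOXM1, read 13.1, 14.6 and 15.3 FPKM in the siNeg libraries and 1.59 to 2.64 FPKM in the 6 libraries given siFOXM1. Both targets were therefore expressed in the control cells and low in every library labelled with their siRNA. Library 1 of every group stood apart in interferon-stimulated genes, as described with the spread between libraries.

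In the control cells 10198 genes, or 16.9% of the table, stood at 1 FPKM or more in all 3 libraries, the level used below for an expressed gene. On TPM 14546 genes stood at 1 or more in all 3 libraries, so the FPKM level is the stricter one. A gene under it is therefore not always silent. The separate libraries held 10810, 11129 and 10852 such genes. Each of the 9 knockdown libraries held between 10763 and 11120, and 9612 of the 10198 genes were at that level in all 12 libraries. By the biotype in the authors' tables, 8247 of the expressed genes were protein coding (80.9%), 1099 were antisense (10.8%) and 207 were lincRNA. Among the 19657 genes that GENCODE v29 calls protein coding, 42.1% were expressed and the median was 0.53 FPKM, the background against which the gene lists below can be read. At the other end, 35443 genes of the table were listed at 0 in all 3 siNeg libraries, among them 4937 (25.1%) of the GENCODE v29 coding genes. Whether a gene listed at 0 was silent or was not counted was not tested. Most of the signal came from few genes: 306 genes held 50% of the summed FPKM and 5127 genes held 90%.

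The 30 genes with the highest mean FPKM held 29.6%, 28.05% and 27.7% of the summed FPKM of siNeg libraries 1, 2 and 3. They comprised all 13 mitochondrially encoded mRNAs, the mitochondrial large ribosomal RNA MT-RNR2, 8 antisense genes, 5 nuclear protein-coding genes, 1 miRNA gene and 2 genes with no symbol. The higher of the latter, ENSG00000277048 on the contig 22_KI270733v1_random, read 3226, 3643 and 4808 FPKM. Its width is only 57 bases and its mean was 222 CPM, so its place rests on the division by a short length. Mitochondrially encoded genes, which specify respiratory chain subunits and the RNAs that translate them, took between 12.8% and 16.5% of the summed FPKM in the 3 libraries (mean 14.8 ± 1.87%, SD). Of the reads, before any division by length, they took 2.05% to 2.68%. MT-CO1, a core subunit of cytochrome c oxidase, read 3774, 3044 and 2783 FPKM. MT-CO2, of the same complex, read 3039, 2780 and 2320 FPKM, and MT-ATP6, of ATP synthase, read 2541, 2766 and 2180 FPKM. MT-CO3 averaged 2348 ± 343 FPKM (SD, n = 3) and MT-ND4, a subunit of complex I, 2267 ± 351. Library 3, the most deeply sequenced, was the lowest of the 3 for all 13 of these mRNAs, and library 1 was the highest for 11.

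The nuclear protein-coding genes were also ranked by themselves. TMSB10, thymosin beta 10, which binds actin monomers, read 2635, 2863 and 3317 FPKM (mean 2938 ± 347, SD). It was the only nuclear coding gene among the 20 highest genes. VIM, the intermediate filament protein vimentin, read 676, 601 and 688 FPKM. ACTB, cytoplasmic beta-actin, read 576, 392 and 534 FPKM, and FTL, the ferritin light chain that stores iron, read 526, 364 and 551 FPKM. In ACTB, FTL and VIM alike, library 2 was the lowest.

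**Figure D1:**
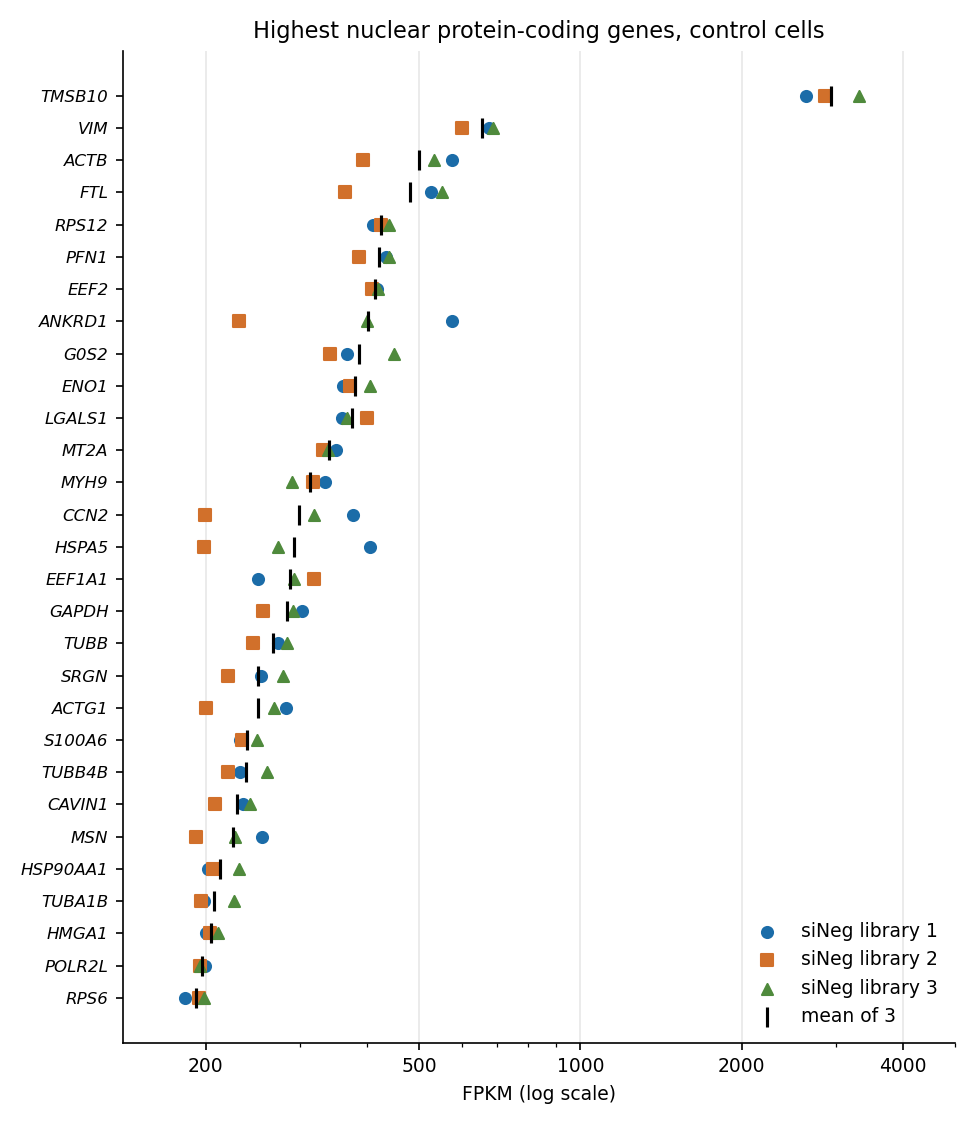
FPKM of 29 of the 30 highest nuclear protein-coding genes (log axis), one row per gene, with a symbol for each siNeg library and a bar for the mean of the 3. TMSB10 stands alone above 2600 FPKM, and library 2 is lowest for most genes, widely so for ANKRD1, CCN2 and HSPA5.

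The next places went to RPS12 (425 ± 14.6 FPKM), a protein of the small ribosomal subunit, the actin-binding profilin PFN1 (420 ± 29.1) and the translation elongation factor EEF2 (414 ± 5.46). ANKRD1, a stretch-responsive nuclear and sarcomeric protein and a known YAP target, read 576, 230 and 400 FPKM. G0S2, an inhibitor of lipolysis, averaged 386 ± 56.3 FPKM, and the glycolytic enzyme ENO1 379 ± 23.7. LGALS1, galectin 1, averaged 375 ± 22.1 FPKM, the metal-binding MT2A 339 ± 9.33 and the non-muscle myosin heavy chain MYH9 313 ± 22.2. CCN2, a matricellular protein also known as CTGF, read 377, 199 and 318 FPKM, and HSPA5, the chaperone BiP of the endoplasmic reticulum, read 406, 198 and 272 FPKM. For 18 of these 30 genes the CV over the 3 libraries was under 10%. The widest was that of ANKRD1, at 43.0%, and the narrowest that of POLR2L, a subunit of the RNA polymerases, at 1.10%.

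The order of these genes depended on the gene length used. The deposited FPKM equalled CPM divided by a width per gene, and for 80.7% of the 14398 genes compared that width was the sum of the lengths of all annotated GENCODE v29 transcripts. A gene with many isoforms is thereby divided by a long length. Over these genes the median width was 2.06 times the length of the merged exons. For ACTG1, cytoplasmic gamma-actin with 17 transcripts, the width was 22865 bases and the merged exons 2993. Its level was 250 FPKM as deposited and 1909 CPM per kb of merged exons, which moved it from the 21st place among nuclear coding genes to place 2. GAPDH moved from 283 FPKM to 1315 CPM per kb, EEF1A1 from 287 to 1020, and HMGA1, a chromatin architectural protein, from 205 to 907. TMSB10, ANKRD1, G0S2, CCN2, HSPA5 and CAVIN1 have 1 transcript and kept the same value on both scales. TMSB10 was first by either length, and 20 of the 30 genes were common to both top lists.

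**Figure D2:**
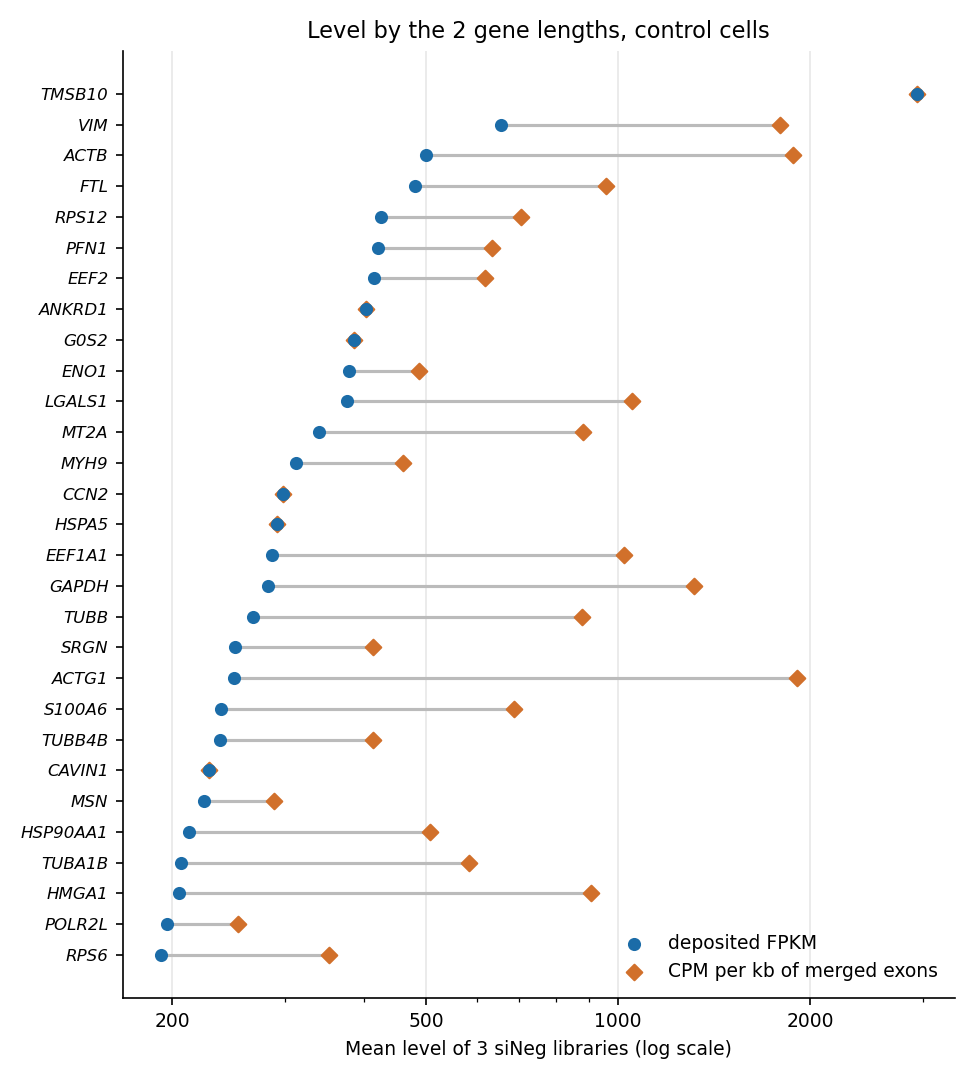
Mean level over the 3 siNeg libraries of 29 of the 30 highest nuclear coding genes (log axis), as deposited FPKM (circles) and as CPM per kb of merged GENCODE v29 exons (diamonds). Symbols coincide where the width equals the merged exons, as for TMSB10 and ANKRD1, and ACTG1, with 17 transcripts, moves from 250 to 1909.

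The highest gene of the whole table was RP11-124N14.3 (ENSG00000234961, hg38, chromosome 10, 17233325 to 17234833, minus strand), at 3992, 3593 and 4111 FPKM. It is annotated as antisense to VIM and shares 619 exon bases with it. RP5-940J5.9 (ENSG00000269968, chromosome 12, 6537794 to 6538370, minus strand) came 4th, at 3457, 2838 and 3245 FPKM, and shares 422 exon bases with GAPDH. The first 30 bases of the longest coding stretch shared by each pair are printed below, as read from the GENCODE v29 transcripts on GRCh38, because the same genomic bases belong to the exons of both genes. The VIM stretch lies at chr10:17233770-17233799 in exon 4 of VIM-201, and the GAPDH stretch at chr12:6537794-6537823 in exon 8 of GAPDH-201. Each lower line is the reverse complement of the line above it.
VIM: gaaatccaggagctgcaggctcagattcag
RP11-124N14.3: ctgaatctgagcctgcagctcctggatttc
GAPDH: acctgccgtctagaaaaacctgccaaatat
RP5-940J5.9: atatttggcaggtttttctagacggcaggt

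Whether reads were assigned by strand is not stated in any label or header read here, so reads from a gene and from its antisense partner cannot be told apart. All 8 antisense genes among the 30 highest shared exon bases with a gene on the other strand, and most of those partners are themselves abundant. They were paired with VIM (RP11-124N14.3 and VIM-AS1), GAPDH, TUBB, TPT1, TUBA1C, UBB and TUBA1B. MIR1282, a miRNA hairpin gene at 1390 ± 151 FPKM, lies with all its 101 bases in exons of SERF2 on the other strand. Antisense genes together held 18.8%, 18.7% and 19.4% of the summed FPKM. Of the 1076 expressed antisense genes found in GENCODE v29, 1041 (96.7%) overlapped exons on the other strand, with a median of 6.64 FPKM. The 35 without such an overlap had a median of 2.29 FPKM, and 3 of them reached 10 FPKM, against 394 of the overlapping ones. In 214 pairs of an expressed antisense gene with at least 90% of its exon bases covered, its level was a median of 1.27 times that of its partner (quartiles 1.02 and 1.77), both as CPM per kb of the longest transcript. The partners did not have to be expressed. Low antisense genes are thus left out, and the ratio is not that of all such pairs.

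**Figure D3:**
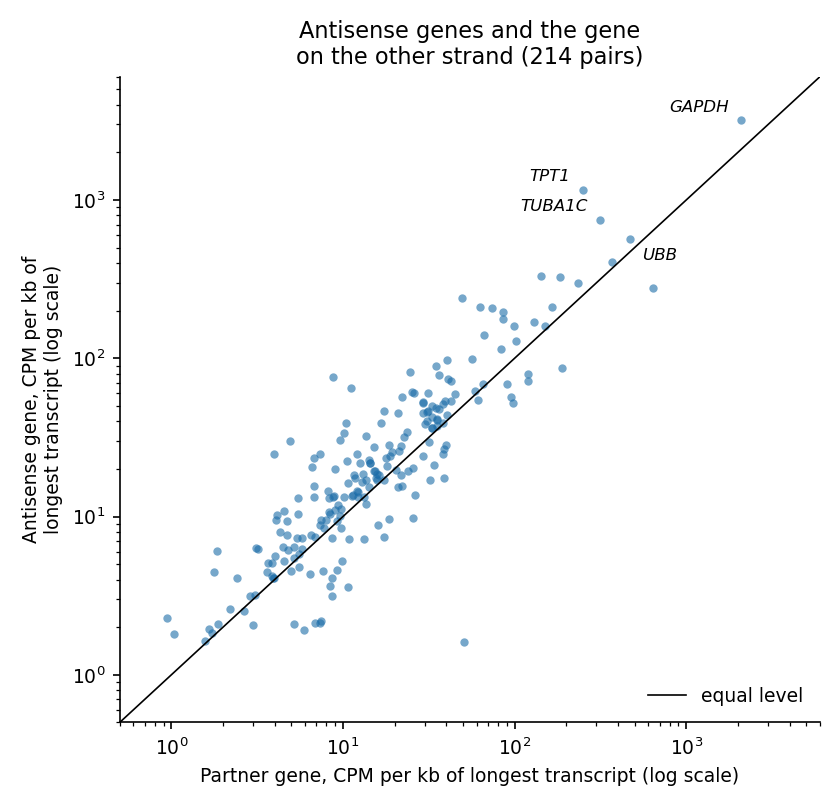
Level of 214 antisense genes against the level of the gene on the other strand whose exons cover at least 90% of their exon bases, both as mean CPM per kb of the longest transcript over the 3 siNeg libraries (log axes). Each point is a pair and the line marks equal levels. The antisense genes were chosen as expressed and the partners were not, so low antisense genes are left out. The pair of RP5-940J5.9 and GAPDH is the highest, and 162 points lie above the line.

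The same overlap touched genes outside the antisense class. BEST1, a chloride channel of differentiated retinal pigment epithelium, read 46.1, 29.1 and 40.8 FPKM and shares 1267 exon bases with FTH1, the ferritin heavy chain, which read 159, 101 and 138 FPKM on the other strand. The 2 genes were highest in library 1 and lowest in library 2. ENO3, the muscle enolase, averaged 34.8 ± 1.13 FPKM and shares 111 exon bases with PFN1. EEF1G, a subunit of elongation factor 1 that is normally abundant, averaged 0.18 ± 0.06 FPKM. Exons of another gene on the same strand cover nearly all of its exon bases, and of 52 coding genes covered to at least 90% in this way 4 (7.69%) were expressed, against 42.2% of the 19605 others. How reads in shared exons were assigned was not tested.

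Among long intergenic non-coding RNAs with no exon overlap on either strand, NORAD, an RNA that binds PUMILIO proteins, was highest at 47.6, 61.8 and 43.0 FPKM. SNHG19, a host of small nucleolar RNAs, followed at 36.9 ± 13.4 FPKM and LINC00973 at 34.5 ± 4.31. Of a list of 23 polyadenylated long non-coding RNAs, 20 were expressed. The list's highest members after NORAD were MIR31HG (27.7 FPKM), SNHG6 (17.6), SNHG8 (15.7) and ZFAS1 (9.50), while H19 and HOTAIR were listed at 0.

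Promoter sequence was looked at for the 30 highest nuclear coding genes, of which 25 matched a RefSeq promoter by symbol (GRCh38.p14). The letters TATAAA, the core of a TATA box, began 40 to 20 bases before the annotated start on the gene's own strand in 3 of the 25 (12%). The same letters stood there in 2.3% of 35116 promoters and for 2.92% of 27305 genes. On the other strand they were in 0 of the 25 and in 0.72% of all promoters. The motif does not overlap itself or another motif searched, and its presence is a description of the letters only. The 30 bases from 40 to 11 before the start are shown for the 3 genes, with the motif in capitals, at chr6:131951383-131951412 (minus strand), chr16:56608544-56608573 (plus) and chr19:3985474-3985503 (minus).
CCN2: ccggagcgTATAAAagcctcgggccgcccg
MT2A: ctctttctagcTATAAAcactgcttgccgc
EEF2: ggcgtccgccTATAAAaagctgagtgttga

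All 79 cytosolic ribosomal protein genes, which build the 2 subunits of the ribosome, were expressed, at a median of 56.8 FPKM. RPS12 was followed by RPS6 (192 ± 7.98 FPKM), RPLP1 (156 ± 4.36), RPS27 (138 ± 9.06) and RPL5 (130 ± 12.7), and RPL17, which shares 611 exon bases with a readthrough gene on its strand, was lowest at 5.50 FPKM. Their CV over the libraries had a median of 6.40%, and 69 of the 79 were under 10%. Library 3 was the highest for 64 of them and library 1 the lowest for 52. Of 22 glycolytic genes 17 were expressed, led by ENO1, GAPDH, PKM (104 ± 9.98 FPKM), PGAM1 (82.2 ± 4.10) and LDHB (79.9 ± 7.17). The liver and red cell form PKLR and the testis form LDHC were listed at 0.

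Cytoplasmic actins and non-muscle myosin were high and muscle forms were near 0. Of 36 actin and contractility genes 31 were expressed, and the list held 3.502 ± 0.238% of the summed FPKM. Below TMSB10, ACTB, PFN1, MYH9 and ACTG1 came TAGLN2 (151 FPKM) and the actin crosslinker ACTN4 (136 FPKM). The muscle actins ACTA1 and ACTC1 and the smooth muscle genes MYH11, CNN1 and ACTG2 stood between 0 and 0.14 FPKM, and ACTA2, smooth muscle actin, which shares 380 exon bases with FAS on the other strand, at 3.24 FPKM. Of 17 tubulin genes 10 were expressed, led by TUBB (267 ± 19.9 FPKM), TUBB4B (237 ± 20.9), TUBA1B (207 ± 16.4) and TUBA1C (89.3 ± 12.0). Among 28 intermediate filament genes 13 were expressed. VIM stood far above the nuclear lamins LMNA (50.4 ± 1.64 FPKM) and LMNB2 (42.9 ± 3.26) and the simple epithelial keratins KRT18 (33.6 ± 3.48) and KRT8 (18.9 ± 3.51), whose genes share 525 exon bases on opposite strands.

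Some calcium-binding and metal-binding proteins were among the high genes. S100A6 averaged 238 ± 9.64 FPKM, S100A11 132 ± 20.5 and annexin ANXA2 97.5 ± 4.21, and 14 of 24 S100 and annexin genes were expressed. Of 10 metallothioneins 4 were expressed: MT2A, MT1E (155 ± 6.87 FPKM), MT1M (9.87 ± 0.67) and MT1X (4.32 ± 0.51). The 6 others were listed at 0 in all 3 libraries.

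The secreted or matrix-bound regulators CCN2, CCN1 (169 ± 10.5 FPKM) and THBS1, thrombospondin 1 (149, 186 and 117 FPKM), led the 44 matrix glycoproteins and proteoglycans, of which 24 were expressed. SPARC, a collagen-binding protein, averaged 65.7 ± 8.39 FPKM and the laminin chain LAMC1 44.4 ± 4.13. FN1, fibronectin, read 32.8, 51.4 and 26.7 FPKM as deposited, and averaged 231 CPM per kb of merged exons. Fibulins FBLN1 and FBLN5, laminin LAMA1, aggrecan ACAN and lumican LUM were listed at 0.

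Of 32 collagen genes 7 were expressed. COL8A1, a short-chain collagen of basement membranes, read 30.9, 42.1 and 33.0 FPKM. The basement membrane collagens COL4A2 and COL4A1, transcribed from a shared bidirectional promoter, averaged 34.9 ± 0.22 and 17.7 ± 1.37 FPKM. COL5A2 (6.73 ± 1.61) and COL13A1 (4.89 ± 1.07) followed. The fibrillar collagens of types I and III were below the level of an expressed gene, with COL1A1 at 0.76 FPKM, COL3A1 at 0.0085 and COL1A2 at 0.0063. Of these, COL1A1 lay above the median of 0.53 FPKM over all coding genes. The median over the whole list was 0.08 FPKM, against 0.53 over all coding genes.

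Enzymes and inhibitors that remodel matrix were expressed for 22 of 34 genes. Among them were the membrane metalloproteinase MMP14 (205, 193 and 159 FPKM) and the gelatinase MMP2 (88.4, 128 and 64.5 FPKM), which MMP14 activates. PLAU, the urokinase that activates plasminogen, read 70.6, 106 and 66.6 FPKM, and LOX, a collagen crosslinking oxidase, 63.0, 50.7 and 55.4 FPKM. Library 2 was the highest for MMP2 and PLAU and the lowest for LOX. MMP3 and MMP9 were listed at 0. Of 25 integrin genes 12 were expressed, led by the common beta chain ITGB1 (97.9 ± 8.04 FPKM), then ITGA3 (74.2 ± 5.38), ITGA5 (41.7 ± 6.82), ITGB5 (36.3 ± 6.36) and ITGA6 (13.8 ± 2.90).

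The labels call the cells epithelial, and junction genes were checked beside mesenchymal ones. Of 24 epithelial junction genes and regulators 5 were expressed, among them DSG2 (24.3 ± 2.73 FPKM) and DSP (14.3 ± 2.64) of desmosomes, the tight junction claudin CLDN1 (5.17 ± 1.29) and the junction scaffold TJP1 (3.67 ± 0.17). E-cadherin (CDH1) and the epithelial regulators ESRP1, GRHL2 and OVOL1 were listed at 0 in all 3 libraries. Of 21 mesenchymal genes 16 were expressed, among them LGALS1, the ectonucleotidase NT5E (118 ± 8.78 FPKM), the receptor kinase AXL (115 ± 5.08), the transcription factor FOXC2 (30.9 ± 4.80) and N-cadherin, CDH2 (25.7 ± 1.00). The list medians were 0.02 FPKM for the epithelial and 3.46 FPKM for the mesenchymal genes. The defining epithelial cadherin was thus listed at 0, while simple keratins and desmosomal genes were expressed. In bulk RNA, expression in a small share of the cells and a low level in all of them cannot be told apart.

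Markers of differentiated retinal pigment epithelium were mostly silent. Of 26 such genes 3 were expressed: BEST1, whose exons overlap FTH1 as described above, the integrin ITGB8 (2.61, 5.35 and 2.50 FPKM) and the retinol dehydrogenase RDH10 (2.07, 3.05 and 2.01 FPKM). The visual cycle genes RPE65 and RGR and the pigment genes TYR, DCT and OCA2 were listed at 0 in all 3 libraries. The pigment granule protein PMEL read 0.63, 0.69 and 0.69 FPKM, above the median of 0.53 FPKM over all coding genes. SERPINF1, the secreted factor PEDF, averaged 0.15 ± 0.04 FPKM. Apart from PMEL, the markers of the differentiated layer named here as not expressed were thus at or near 0 in cells whose line is named for it.

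Transcription factors of the eye field gave a mixed picture. SIX3, a homeobox gene of the early forebrain and eye, read 28.6, 40.8 and 31.9 FPKM with no overlapping exon in GENCODE v29. SOX9, expressed in pigment epithelium and many mesenchymal cells, read 22.8, 24.1 and 18.1 FPKM. VAX2, of the ventral retina, read 2.77, 2.80 and 1.58 FPKM. MITF, the master regulator of pigment cells, read 0.99, 1.09 and 1.19 FPKM, just short of the level in library 1. PAX6 averaged 0.65 ± 0.16 and OTX2 0.30 ± 0.13 FPKM, while RAX, SIX6 and PAX2 were listed at 0.

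HOX genes, which mark position along the trunk and are silent in the anterior head, were expressed for 1 of 39. HOXB4 read 2.73, 2.88 and 2.09 FPKM and shares exon bases with HOXB3, and HOXB6 read 0.84, 1.29 and 1.17 FPKM. The other HOX genes with a mean above 0.1 FPKM were HOXB5, HOXB3 and HOXB9, all of the B cluster. Of the 39, 30 were listed at 0, against 25.1% of all coding genes.

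Markers of other cell types were low. None of the 12 blood, 9 endothelial, 11 neural, 10 muscle, 8 hepatocyte, 7 pluripotency and 8 melanocyte markers was expressed in all 3 libraries. The highest of each list were CD68 at 0.48 FPKM, TIE1 at 0.37, TUBB3 at 1.29, MYH3 at 0.05, AFP at 0.42, SOX2 at 0.06 and PMEL at 0.67. Of these, TUBB3 and PMEL lay above the median of 0.53 FPKM over all coding genes. Of 10 keratinocyte markers found, KRT10 (12.6 ± 1.25 FPKM) and KRT14 (2.60, 1.17 and 2.69 FPKM) were expressed, while KRT5 was listed at 0. Among 10 photoreceptor markers 1 was expressed, the cone opsin OPN1SW at 2.50, 3.33 and 3.504 FPKM. OPN1SW has no overlapping exon in GENCODE v29 and lies at chromosome 7, 128772491 to 128775790, on the minus strand. The far more abundant CALU (703 CPM, against 3.41 for OPN1SW) ends nearby at 128771807 on the plus strand. Whether reads at OPN1SW came from CALU transcripts was not tested.

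**Figure D4:**
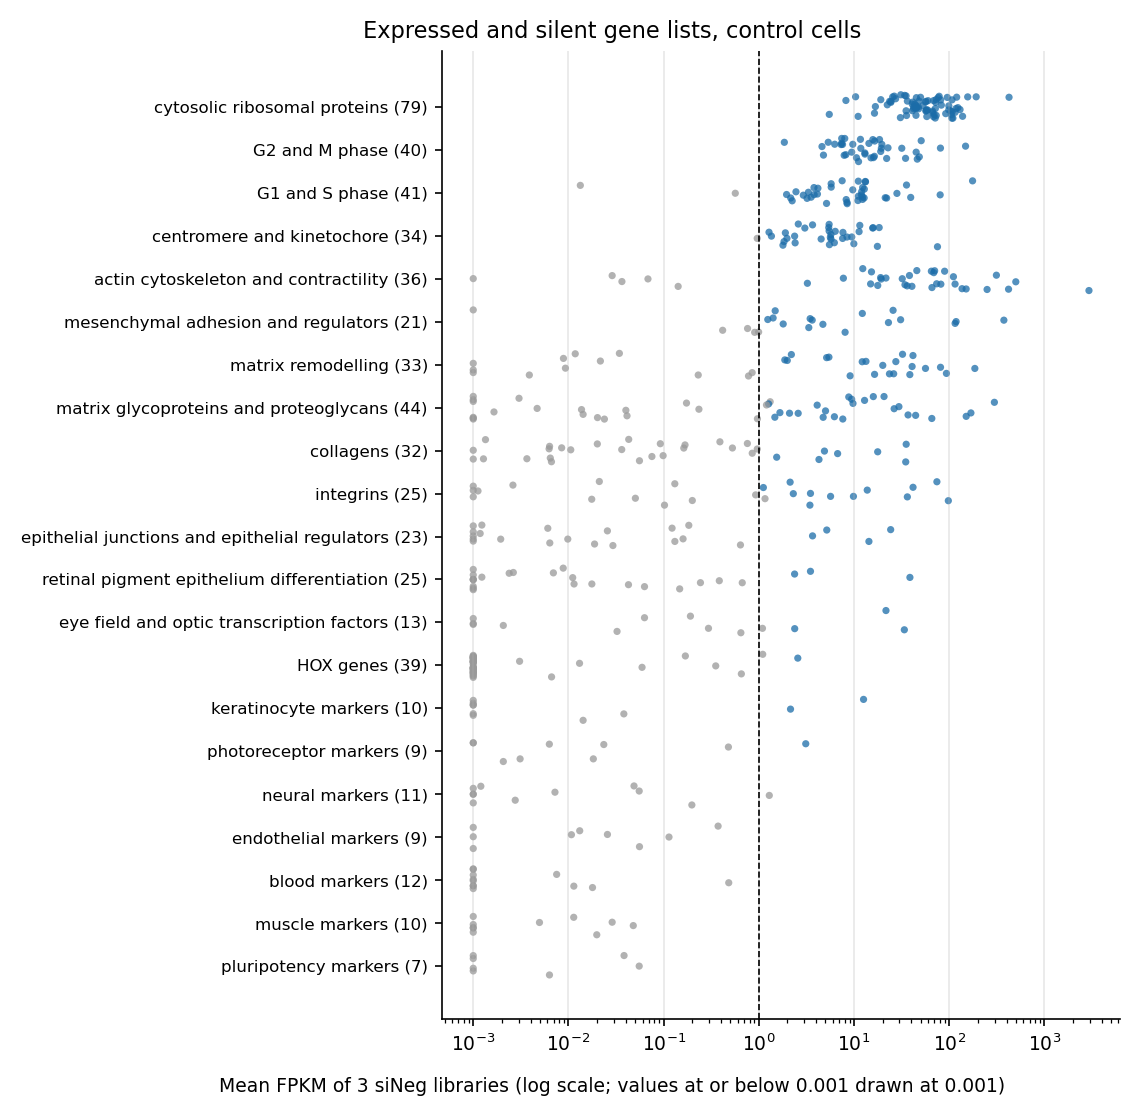
Mean FPKM over the 3 siNeg libraries (log axis) of the members of 21 gene lists, with the number drawn in brackets. Each point is a gene, blue where it was at 1 FPKM (dashed line) or more in all 3 libraries and grey otherwise. The ribosomal and cell cycle lists lie almost wholly to the right of the line, and the HOX, blood, muscle and pluripotency lists almost wholly to the left.

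Genes of the dividing cell were expressed nearly throughout. Of 41 genes of G1 and S phase 39 were expressed. CCND1, cyclin D1, which starts the passage through G1, read 203, 158 and 167 FPKM. The replication clamp PCNA averaged 80.3 ± 9.18 FPKM, the thymidylate synthase TYMS 39.4 ± 5.89, the flap endonuclease FEN1 35.6 ± 5.33 and the ribonucleotide reductase subunit RRM2 28.2 ± 5.34. The 2 genes below the level were both cyclins, CCNE1 at 0.57 FPKM and CCND2 at 0.01. Library 3 was the highest for 36 of the 41 genes, and also for 64 of the 79 ribosomal protein genes. The share over all expressed genes was not counted.

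All 40 genes of G2 and M phase were expressed, at a median of 13.7 FPKM. CKS2, a subunit that binds cyclin-dependent kinases, read 133, 167 and 145 FPKM. The topoisomerase TOP2A, which untangles sister chromatids, read 63.8, 104 and 75.4 FPKM. TPX2, a spindle assembly factor, averaged 50.8 ± 2.55 FPKM, the activator of the anaphase-promoting complex CDC20 48.5 ± 3.83 and the cytokinesis protein ANLN 46.2 ± 3.38. Library 1 was the lowest for 38 of the 40 genes, and also for 52 of the 79 ribosomal protein genes. The share over all expressed genes was not counted. The summed FPKM of the G2 and M list was 768, 959 and 880 in libraries 1, 2 and 3. What sets library 1 apart in these genes was not tested.

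Of 34 centromere and kinetochore genes 33 were expressed, with a median of 5.58 FPKM. CENPB, which binds alphoid satellite DNA, averaged 75.3 ± 3.90 FPKM. CENPW (18.4 ± 3.73), the outer kinetochore protein NDC80 (17.6 ± 3.48), CENPU (15.9 ± 1.82) and CENPQ (15.7 ± 2.17) followed. CENPC, which links the centromeric nucleosome to the kinetochore, averaged 0.96 FPKM and was the single member under the level.

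Of 17 cell cycle brakes 13 were expressed. CDKN1A, the p21 inhibitor downstream of p53, read 34.0, 33.8 and 20.4 FPKM, lowest in library 3. CDKN1B (16.2 ± 4.66 FPKM), the retinoblastoma gene RB1 (15.7 ± 0.42), CDKN2A (11.9 ± 2.09) and CDKN2C (9.21 ± 2.40) were expressed too. TERT, the enzyme for which the line is named, read 0.12, 0.17 and 0.18 FPKM in the control cells. A coding transgene is counted here only as far as its reads match the annotated gene, and the construct is not described in the labels. TERC, the telomerase RNA, read 0.46 FPKM in library 1 and was listed at 0 in libraries 2 and 3. The other 5 of the 7 telomerase components on the list were NOP10 (56.8 ± 4.02 FPKM), NHP2 (24.4 ± 2.54), DKC1 (7.98 ± 1.04), GAR1 (7.57 ± 0.58) and WRAP53 (1.56 ± 0.22), all expressed.

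Receptors and their ligands were expressed for 15 of 28 and 25 of 34 genes. Among receptors AXL led, followed by EPHA2 (44.2 ± 0.65 FPKM), MET (30.6 ± 2.23), TGFBR2 (26.4 ± 3.89) and DDR2 (14.4 ± 2.31), while KIT, FGFR2, FGFR3 and NTRK2 were listed at 0. Among ligands TGFB1, a regulator of matrix genes, read 56.5, 72.2 and 51.8 FPKM. The Wnt inhibitor DKK1 read 32.9, 24.0 and 39.9 FPKM. VEGFC averaged 29.5 ± 2.85 FPKM, the BMP antagonist GREM1 25.4 ± 7.01 and WNT5B 24.4 ± 1.11. Of 16 immediate early genes 8 were expressed, led by JUN (69.9 ± 8.07 FPKM), KLF2 (47.3 ± 9.67) and the phosphatase DUSP1 (58.9, 26.8 and 46.3 FPKM), while FOS averaged 0.22 FPKM.

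Of 33 genes of the primary cilium and of Hedgehog signalling, which the cilium relays, 18 were expressed, led by the kinesin motor KIF3B (12.6 ± 0.78 FPKM), the Hedgehog-binding HHIP (11.9 ± 1.67), the intraflagellar transport protein IFT57 (6.76 ± 1.38), INPP5E (6.64 ± 0.42) and SUFU (4.20 ± 0.99). The Hedgehog transducer SMO was listed at 0 in all 12 libraries, and whether its reads were counted was not tested. The Hedgehog receptor PTCH1 averaged 0.02 FPKM. The list median of 1.20 FPKM was above the 0.53 FPKM over all coding genes.

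The spread between the 3 control libraries is given as a CV. The median CV of an expressed gene was 9.69%. It was 10.2% for genes between 1 and 5 FPKM, 8.95% between 5 and 20, 8.90% between 20 and 100 and 9.58% at 100 or more. The CV from counting alone had medians of 4.37%, 2.85%, 1.81% and 1.05% in the same ranges. Between 2 siNeg libraries the median fold difference of a gene was 1.09 to 1.12. Between a siNeg library and a knockdown library of the same number it was 1.07 to 1.10, and of another number 1.08 to 1.16. These ranges overlap.

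Of 4684 genes with a mean of 5 FPKM or more, 109 (2.33%) differed over 2-fold between their highest and lowest siNeg library, on FPKM + 0.5. Library 1 was highest for 60, library 2 for 39 and library 3 for 10. The library with the same number was also the highest of its group for 93 of the 109 genes in siCENPF, 83 in siFOXM1 and 85 in siCENPF+siFOXM1. This was not counted over all 4684 genes. Over 14069 genes same-numbered libraries also deviated together, with correlations of 0.156 to 0.442, so the agreement is not particular to the 109. Without siNeg library 1 the number of genes over 2-fold was 30, and without library 2 it was 51. The steadiest highly expressed nuclear coding genes were POLR2L (199, 195 and 195 FPKM), TMSB4X (114, 117 and 115 FPKM) and EEF2 (417, 408 and 418 FPKM).

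Interferon-stimulated genes varied most. These genes are induced by type I interferon or by sensing of foreign nucleic acid. IFI6 read 95.9 FPKM in siNeg library 1 against 2.35 and 6.44 in libraries 2 and 3, a 33.9-fold range on FPKM + 0.5. ISG15, a ubiquitin-like modifier, read 76.2, 2.81 and 5.84 FPKM, and IFIT1, which binds foreign RNA, read 58.9, 1.98 and 2.88 FPKM. Library 1 was the highest for all 24 list members above 0 in siNeg, and the remaining member, CMPK2, was listed at 0.

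Library 1 of the other groups was high as well. The summed FPKM of the 25 genes was 445, 37.3 and 43.8 in libraries 1, 2 and 3 of siNeg. The sums were 578, 34.4 and 27.3 in siCENPF. They were 203, 32.6 and 39.9 in siFOXM1, and the libraries given both siRNAs had 226, 34.7 and 28.1. Library 1 was the highest for 24 of 24, 23 of 23 and 24 of 24 members above 0 in the 3 knockdown groups. The labels give no date or batch for the numbers, and what they mark was not tested. Any mean of these genes over the control libraries is thus set by library 1.

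**Figure D5:**
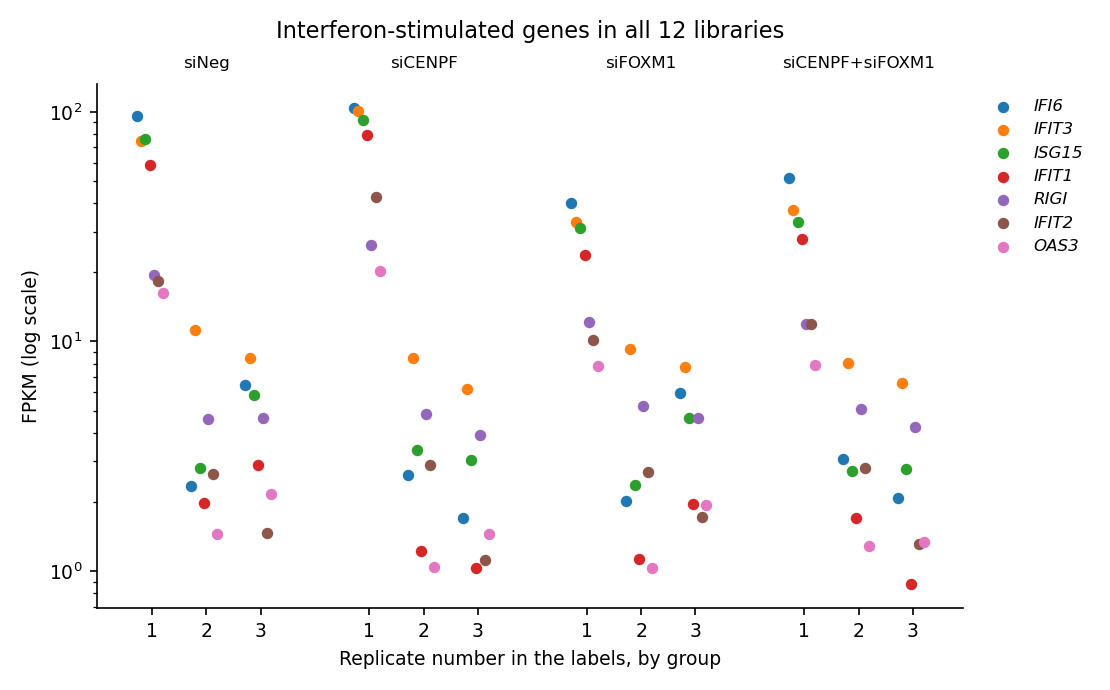
FPKM (log axis) of 7 of the 8 interferon-stimulated genes with a siNeg mean of 5 FPKM or more, in the 3 numbered libraries of each of the 4 groups. Points of 1 library are spread sideways for clarity. Library 1 lies above libraries 2 and 3 for every gene in every group.

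Other genes of wide spread followed different libraries. Of the 10 coding genes with the largest range, all but FOXS1 were highest in library 1. They were IFI6, IFIT1, ISG15, IFIT2, OAS3, IFIT3 and, outside the list, HELZ2 (12.8, 1.71 and 1.94 FPKM), DTX3L (27.6, 6.42 and 7.13 FPKM) and KRTAP2-3. KRTAP2-3, a keratin-associated protein gene, read 13.4, 2.51 and 9.26 FPKM, highest in library 1 and lowest in library 2. FOXS1, a forkhead transcription factor gene, read 3.21, 15.1 and 3.88 FPKM, highest in library 2. Library 2 of the knockdown groups had 14.1, 15.9 and 14.3 FPKM of FOXS1, against 2.24 to 6.58 FPKM in their libraries 1 and 3. ANKRD1, CCN2 and HSPA5 were lowest in library 2 in all 4 groups. For ANKRD1 the knockdown libraries numbered 2 read 293, 164 and 223 FPKM, and those numbered 1 read 587, 339 and 379 FPKM.

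The baseline genes were then compared between siNeg and each knockdown group with limma on log2(FPKM + 0.5), over 14069 genes with Benjamini-Hochberg adjustment at 0.05. The 3 comparisons share the siNeg libraries. In all, 40 genes (0.284%) differed in siCENPF, 85 (0.604%) in siFOXM1 and 49 (0.348%) in siCENPF+siFOXM1. With the replicate number as a block the counts were 303 (2.15%), 708 (5.03%) and 586 (4.17%). None of the 30 highest genes and none of the 30 highest nuclear coding genes passed the test without the block in any comparison. With the block, 1, 0 and 1 of the 30 highest genes were called, all higher in the knockdown, where 1.17%, 2.4% and 2.14% of all genes tested were. Of the 30 highest nuclear coding genes the block called 3 higher in siCENPF, 2 lower in siFOXM1 (2.63% of all genes tested) and 1 lower in siCENPF+siFOXM1 (2.03%). The median log2 difference of the 30 highest genes was 0.074, 0.0037 and 0.029, against -0.017, -0.0042 and -0.0061 over all genes tested. The interferon-stimulated list had 0 of 17 tested members called in each comparison, with and without the block. Its median log2 difference was -0.027 in siCENPF, -0.39 in siFOXM1 and -0.41 in siCENPF+siFOXM1. With library 1 far above the others in every group, 0 calls do not show equal levels.

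COL4A1 rose in all 3 knockdown groups. It read 19.3, 16.8 and 17.1 FPKM in the siNeg libraries. The siCENPF libraries read 24.6, 25.4 and 27.8 FPKM, the siFOXM1 libraries 23.5, 25.4 and 25.8 FPKM, and those given both siRNAs 24.99, 24.6 and 28.7 FPKM. All 3 siNeg libraries lay below all 9 others. The gene was picked by the test on these libraries, and the 3 comparisons share the siNeg libraries, so this adds no support. The log2 fold changes were 0.54 ± 0.08 (SE, limma adjusted p = 0.032), 0.48 ± 0.08 (adjusted p = 0.037) and 0.54 ± 0.08 (adjusted p = 0.024). Without the block COL4A1 was the 1 member of 11 collagen genes tested that was called, where 0.163%, 0.27% and 0.185% of all genes tested were higher. Leaving out any 1 library of a comparison ended its call, with adjusted p from 0.0624 to 0.167, except that siCENPF+siFOXM1 kept it without siNeg library 1 (0.0393). On TPM the calls ended in all 3 comparisons (adjusted p = 0.0791, 0.0714 and 0.0530), as they did with no filter on low values (0.0747, 0.0805 and 0.0530). With the replicate block they were 0.011, 0.011 and 0.0069. The block called 1, 2 and 1 of the 11 collagen genes higher, where 1.17%, 2.4% and 2.14% of all genes tested were. It called 4, 5 and 4 of 27 matrix glycoprotein and proteoglycan genes higher and 1, 0 and 0 lower. Of 24 matrix remodelling genes 2, 4 and 3 were higher and 0, 1 and 0 lower. Of 26 secreted growth factors and cytokines 4, 4 and 4 were higher and 0, 4 and 3 lower. Of all genes tested 0.981%, 2.63% and 2.03% were lower.

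Few members of the cell cycle lists passed the test without the block, where 0.121%, 0.334% and 0.163% of all genes tested were lower in siCENPF, siFOXM1 and siCENPF+siFOXM1. The siFOXM1 cells had lower FOXM1, CCNA2 and CCNF among 40 G2 and M genes and lower CDKN2D among the brakes. CCNF, cyclin F, read 5.07, 5.49 and 5.51 FPKM in siNeg and 3.46, 3.54 and 3.25 in siFOXM1 (log2 fold change -0.58 ± 0.07, limma adjusted p = 0.0086). CCNA2, cyclin A2, read 31.3, 38.1 and 35.0 FPKM in siNeg and 21.2, 22.7 and 23.2 in siFOXM1 (-0.62 ± 0.10, limma adjusted p = 0.030). The siNeg and siFOXM1 libraries did not overlap for either gene. Both genes were picked by the test on these same libraries, so this adds no support to the calls. The CCNA2 call was lost when any 1 of the 6 libraries compared was left out, with limma adjusted p between 0.0545 and 0.133, and the CCNF call without library 3 of either group (0.052 and 0.051).

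In siCENPF+siFOXM1, CENPF, FOXM1, CCNF and CDKN2D were lower, and in siCENPF only CENPF of the G2 and M list was. KIF3B of the cilium list was higher in siFOXM1, where it averaged 16.6 ± 0.69 FPKM (SD) against 12.4, 13.5 and 12.0 FPKM in the siNeg libraries (log2 fold change 0.38 ± 0.06, SE, limma adjusted p = 0.028). The call held only without siNeg library 2 among the 6 libraries left out in turn. It was the 1 of 26 cilium genes tested that was called, where 0.27% of all genes tested were higher. KIF3B read 16.2, 15.1 and 15.2 FPKM in siCENPF and 15.5, 15.5 and 15.7 FPKM with both siRNAs. These values also lay above every siNeg library, but the siFOXM1 call that picked the gene used the same siNeg libraries. In siCENPF and siCENPF+siFOXM1 KIF3B did not pass the test (limma adjusted p = 0.162 and 0.111) except with the replicate block (0.0294 and 0.0187). A difference between the knockdown groups was not tested. The CDKN2D calls ended in 5 of 6 such fits in each comparison, and that on CCNF in siCENPF+siFOXM1 ended without library 2 or 3 of that group. With the replicate block 4, 9 and 10 of the 40 G2 and M genes and 12, 11 and 17 of 40 G1 and S genes tested were lower in siCENPF, siFOXM1 and siCENPF+siFOXM1, where 0.981%, 2.63% and 2.03% of all genes tested were. The block called 0, 2 and 1 of the G2 and M genes higher, where 1.17%, 2.4% and 2.14% of all genes tested were. The G1 and S list had a median log2 difference of -0.22, -0.20 and -0.24, with 0 members called without the block.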

How the data were processed

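PolyA RNA of 12 libraries was sequenced. Per the submitters' processing notes, the authors' tools were bcl2fastq, Trimmomatic, TopHat and edgeR, and the build was hg38. HTSeq is named on the deposited comparison tables. No strand setting for counting was found in the labels or headers. FPKM were used as deposited, and the authors' deposited CPM per gene gave the gene widths and, as whole multiples of the value of 1 read (tolerance 0.01), the reads per library. Of the values under 60 reads 48.5% to 51.4% were even and 31.2% to 35.2% multiples of 3. The authors' normalized counts, a deposited signal on a count scale, served as an alternative. Symbols came from the authors' tables (14556 genes, 354 without one) and from a reference list for 56104 identifiers. Exon overlap came from GENCODE v29.

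Means and SDs were taken over the 3 siNeg libraries (pandas 2.3.3). limma 3.58.1 in R 4.3.3, with trend and robust moderation, took all 12 libraries and 4 groups on log2(FPKM + 0.5), for genes at 0.5 FPKM or more in at least 3 libraries. The fit without the block was run on simulated data with independent libraries. That run cannot check it under the shared deviations of same-numbered libraries given below. Fold changes on this scale understate those of low genes. P-values measure only the spread between these samples. Counting CVs assume independent reads.

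Replicate numbers were checked for pairing over 14069 genes. Deviations from the group means correlated at 0.156 to 0.442 in the 18 same-numbered pairs and at -0.362 to 0.005 in the 36 others. The numbers were therefore taken as a pairing, and used as a block in an alternative fit. The limma fit reported first, and the fits with libraries left out, have no block and so ignore this pairing. Blocked values stand beside some of the results that the block changes.

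The members and gene lists were chosen with earlier results of these data known. Named genes were the 30 highest, up to 5 members per list, expressed members of silent lists, TERT, CENPF and FOXM1, the 10 widest coding genes and members passing limma. Genes named as listed at 0 or low, the length and overlap examples, the steadiest genes and the sequences shown were chosen after their values were seen. Alternatives were other thresholds, pseudocounts, scalings, gene lengths, libraries left out and a replicate block. Some genes of the lists enter the counts and are not reported by name or drawn here.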

Additional observations from a re-analysis of the deposited data

How the results depend on the processing

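The number of expressed genes was 10357 to 10474 with 1 siNeg library left out, 4265 at a threshold of 5 FPKM and 12166 at 0.5 FPKM. It was 14546 on TPM and 11651 on CPM per kb of merged exons. The 30 highest genes held 28.4% of the summed FPKM, 27.9% to 28.8% with 1 library left out, 20.6% without mitochondrially encoded genes, 10.3% on CPM and 18.7% on CPM per kb of merged exons, an alternative chosen after seeing the data, as was leaving out antisense genes. Of the 30 highest genes 29 or 30 stayed with 1 library left out, 10 on CPM and 23 on CPM per kb of merged exons. Genes over 2-fold between siNeg libraries numbered 30 to 101 with 1 library left out, and 433 of 10906 with a minimum mean of 1 FPKM. Calls against siNeg numbered 10 to 20 (siCENPF), 17 to 32 (siFOXM1) and 9 to 30 (siCENPF+siFOXM1) with 1 library left out. With no filter on low values they numbered 26 and 40 in siCENPF and siFOXM1, and 53 in siFOXM1 on TPM. With the replicate block, on the pairing described above, they numbered 303, 708 and 586. The causes of these moves were not tested. Of 78 fits of named calls with 1 library left out, 42 lost the call. On TPM 6 of 13 named calls were lost (COL4A1 in all 3 comparisons, and CCNA2, CDKN2D and KIF3B in siFOXM1), and with no filter the same ones but KIF3B, 5 of 13. The replicate block ended none of the 13, and no named fold change turned its sign under the alternatives run. Library 2 was the shallowest of siNeg. For genes of 1 to 5 FPKM the lowest of a gene's 3 siNeg read counts had a median of 388, which limits low genes most.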
